A study of Mus musculus with 9 samples.

Results

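The Slc25 family, the mitochondrial carriers, was described in RNA-seq libraries from kidneys of mice given AngII, angiotensin II, the hormone that constricts vessels and raises blood pressure. Members were the rows of the deposited gene table whose symbol starts with Slc25a, without Slc25a20 and without pseudogenes, which gave 45 of 32593 genes. They were grouped by the substrate each carrier is known to move, except that Slc25a34 and Slc25a35, whose substrate is unsettled, were placed with the dicarboxylate and tricarboxylate carriers: 16 nucleotide and cofactor carriers, 6 dicarboxylate and tricarboxylate carriers, 11 amino acid carriers, 4 proton and uncoupling carriers, and 8 carriers of iron or of other or unsettled substrates. Slc25a39 and Slc25a40, which carry glutathione, were counted with the amino acid carriers. All mice received AngII. The AngII group had the genotype Tmemfl/fl without Cre, the CDH16KO-AngII group CDH16 Cre+/Tmemfl/fl, and the GRPR-AngII group CDH16 Cre+/GRPRfl/fl, with 3 libraries in each group. The labels write Tmem only; it was read as Sting1 because STING stands in the series title. Cdh16 encodes a cadherin of kidney tubule epithelium, so the Cre is placed in tubule cells while the RNA came from kidney tissue that also holds cells without it. The labels give no age and no sex, and they do not say whether each library is a separate animal. CDH16KO-AngII differs from AngII by the Cre as well as by what the Cre deletes, and GRPR-AngII differs from AngII by the Cre and by the floxed allele, so these cannot be told apart.

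Carriers of this family sit in the inner mitochondrial membrane, with a few exceptions in peroxisomes or the outer membrane, and pass metabolites between the matrix and the cytosol. Most exchange a pair of substrates, such as ADP for ATP, malate for oxoglutarate, or aspartate for glutamate. Proximal tubule cells are rich in mitochondria and depend on oxidative phosphorylation, which needs ADP and phosphate to enter the matrix and ATP to leave it. In a sample of whole tissue, fewer cells of a type and less RNA per cell cannot be told apart.

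Library totals were 40731748 to 60449117 counts, and mitochondria-coded genes took 16.1% to 26.4% of them. Sting1 was at 4.62, 1.77 and 5.33 CPM (counts scaled to a common library size with TMM, a factor that aligns library composition) in the AngII libraries. The CDH16KO-AngII libraries held 2.15, 2.24 and 2.04 CPM of it, and the GRPR-AngII libraries 2.90, 2.90 and 2.68 CPM. The CDH16KO-AngII and AngII ranges overlapped, because AngII library 2 was the lowest of all 9, so this gene does not separate those groups. The table has no row under Grpr. Proximal tubule markers were abundant: all 10 of the listed markers were tested, and their summed level was 8488 to 12678 CPM per library. Skeletal muscle markers summed to at most 0.229 CPM.

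The promoters of 3 members, picked by the size of their differences or of their spread, are shown first. Slc25a34 and Slc25a48 had the largest differences between groups in CDH16KO-AngII, and Slc25a25 had the widest spread relative to its mean within a group among tested members. Each sequence is the 250 bases before a transcription start of the gene in the RefSeq promoter table, build GRCm38.p6, read 5′ to 3′ on the strand of the gene. Slc25a34 is at chr4:141623835-141624084 on the minus strand, Slc25a48 at chr13:56438105-56438354 on the plus strand, and Slc25a25 at chr2:32424067-32424316 on the minus strand. The Slc25a25 window lies upstream of a start within the gene, the most downstream of its 3 starts in the table. Capitals mark matches, on either strand, to AAGGTCA (an extended half-site of nuclear receptors), CCAAT (the CCAAT box), GGGCGG (the GC box) or TGACGTCA (the cAMP response element).
Slc25a34: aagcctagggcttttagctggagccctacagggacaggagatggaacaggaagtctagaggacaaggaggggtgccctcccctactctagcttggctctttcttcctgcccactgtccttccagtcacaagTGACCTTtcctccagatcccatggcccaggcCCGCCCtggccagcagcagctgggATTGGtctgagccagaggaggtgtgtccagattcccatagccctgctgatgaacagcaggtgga
Slc25a48: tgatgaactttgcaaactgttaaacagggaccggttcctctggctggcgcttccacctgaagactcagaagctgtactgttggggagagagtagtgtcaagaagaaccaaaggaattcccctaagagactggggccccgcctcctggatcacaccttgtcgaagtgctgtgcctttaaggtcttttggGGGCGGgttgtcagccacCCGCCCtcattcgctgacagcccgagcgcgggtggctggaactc
Slc25a25: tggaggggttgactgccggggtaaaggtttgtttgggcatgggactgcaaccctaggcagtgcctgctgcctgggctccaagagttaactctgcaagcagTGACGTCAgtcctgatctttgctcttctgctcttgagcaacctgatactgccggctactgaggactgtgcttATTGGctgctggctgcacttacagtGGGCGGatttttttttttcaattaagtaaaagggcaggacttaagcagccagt

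The Slc25a34 window held the nuclear receptor half-site on the minus strand of the gene, starting 119 bases before the transcription start, with a GC box at 88 bases and a CCAAT box at 64 bases. Of all 32851 promoter windows of the table, 4.08% held that half-site, and among the 44 windows of the 34 members that matched the table only that of Slc25a34 did. The Slc25a48 window held GC boxes at 62 and 44 bases and none of the other 3 motifs. GC boxes were found in 70.5% of member windows and in 32.7% of all windows. The cAMP response element of Slc25a25 starts 150 bases before the start shown, and the windows of its other starts in the table held none. The element was found in 1.55% of all windows and in windows of 2 members, Slc25a25 and Slc25a36. Palindromic NRF1 sites were in 0.782% of all windows and in no member window, and the same held for the ERR element TCAAGGTCA (0.387% of all windows). E-boxes (CACGTG) were in 18.2% of member windows and 6.02% of all windows. A match is a string of letters in this window, and no binding was measured.

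The family was dominated by a few carriers. Levels between genes are compared in FPKM (fragments scaled to transcript length and library size, as deposited). Slc25a5, an exchanger of ADP and ATP, had a mean of 341.5 FPKM over the 9 libraries and alone made up 29.9% of the summed FPKM of the 45 members. Slc25a39, the glutathione carrier, followed at 159.2 FPKM, then Slc25a4, the other main ADP/ATP exchanger, at 105.9 FPKM. Slc25a10, the dicarboxylate carrier, stood at 96.96 FPKM and Slc25a3, the phosphate carrier, at 96.7 FPKM. These 5 carriers made up 70.2% of the family, and adding Slc25a11 (oxoglutarate/malate, 49.2 FPKM), Slc25a1 (citrate, 39.4 FPKM) and Slc25a51 (NAD, 23.5 FPKM) brought the share to 80%. In the order of levels, Slc25a10 and Slc25a3 had overlapping ranges over the 9 libraries (77.05 to 123.1 and 79.06 to 120.3 FPKM), and Slc25a4 overlapped both (87.3 to 125.6 FPKM). Slc25a5 did not overlap any other member, its lowest library being 217.7 FPKM against a highest of 187.7 FPKM for Slc25a39.

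**Figure D1:**
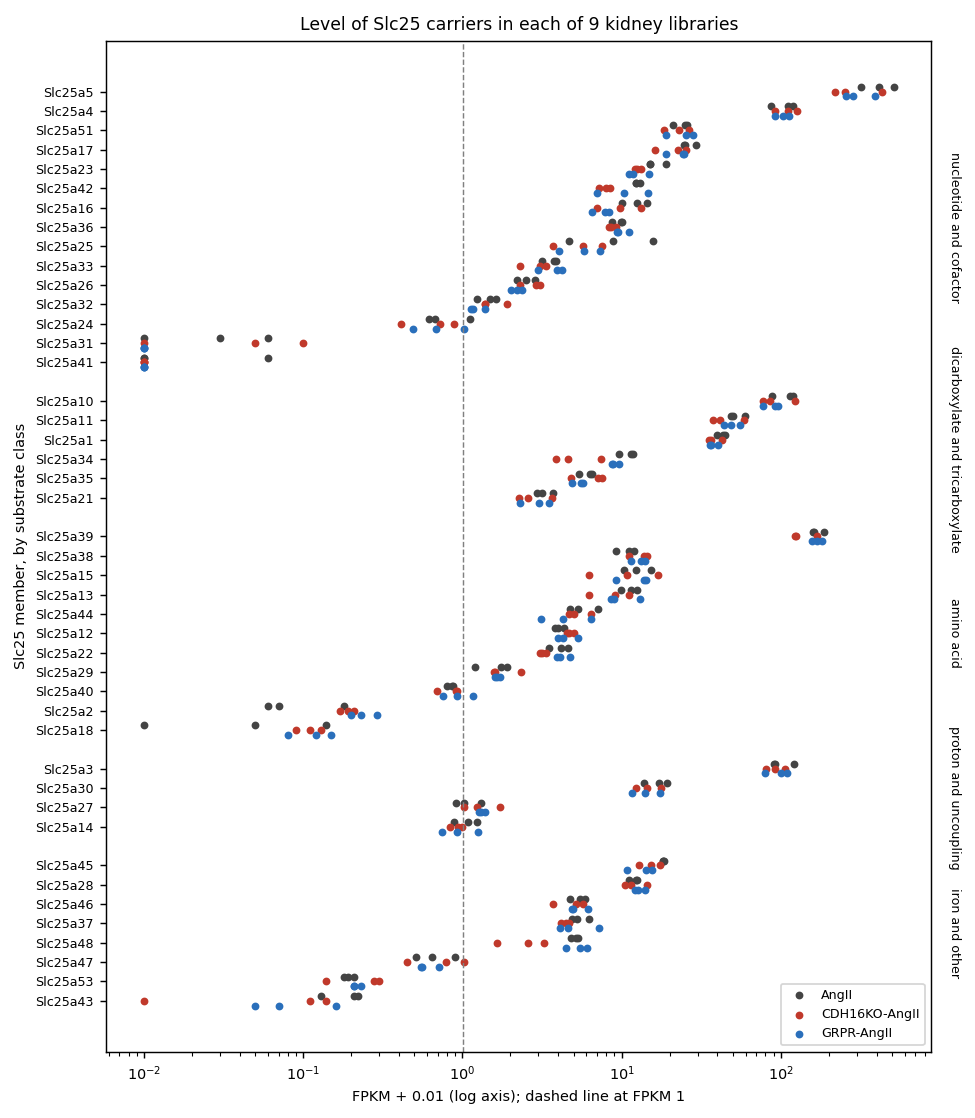
Deposited FPKM of the members reported here (rows, ordered by mean level within a substrate class) in each library, on a log axis after adding 0.01; black points are AngII, red CDH16KO-AngII and blue GRPR-AngII libraries, and the dashed line is at FPKM 1. Slc25a5 lies at 217.7 FPKM or more in every library, and 9 members did not reach FPKM 1 in 3 libraries.

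Of the 45 members, 36 reached an FPKM of 1 in at least 3 libraries and were tested with the other genes, 12507 in all. The 9 below that level were Slc25a40, Slc25a24, Slc25a47, Slc25a53, Slc25a2, Slc25a43, Slc25a18, Slc25a31 and Slc25a41. Slc25a40, a second glutathione carrier, had a mean of 0.868 FPKM, so Slc25a39 exceeded it 132.7-fold to 218.3-fold within a library. Slc25a24, a calcium-regulated ATP-Mg/phosphate carrier, had 0.723 FPKM, and Slc25a47, known from liver, 0.671 FPKM. Slc25a31, the ADP/ATP exchanger of germ cells, had no count in 5 libraries and 4 to 14 counts in the others. Slc25a41 had 5 counts in AngII library 2 and 0 in the other 8 libraries, and 0 counts allow up to 3 counts, which is 0.0483 to 0.0683 CPM in these libraries. Slc25a18, a glutamate carrier, had 102 counts over the 9 libraries, but it overlaps Atp6v1e1 on the other strand, which had a mean of 11657 counts, and no source used here tells whether strand was counted.

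The order of close relatives was the same in all 9 libraries for 7 of the 8 pairs compared. Slc25a5 exceeded Slc25a4 by 2.28-fold to 4.75-fold, Slc25a36 exceeded Slc25a33 (both pyrimidine nucleotide carriers) by 2.31-fold to 3.76-fold, and Slc25a30 exceeded Slc25a14 (relatives of the uncoupling proteins) by 11.2-fold to 19.1-fold. Slc25a28, mitoferrin 2, exceeded Slc25a37, mitoferrin 1, in all 9 libraries, the ratio of Slc25a37 to Slc25a28 being 0.290 to 0.570. Slc25a13 exceeded Slc25a12, both aspartate/glutamate carriers of the malate-aspartate shuttle, in every library. Their FPKM ratio was 2.65, 3.15 and 2.62 in AngII, 2.01, 2.39 and 1.24 in CDH16KO-AngII, and 2.09, 2.46 and 2.15 in GRPR-AngII. The AngII ratios lay above all others. The 8 pairs were chosen by relationship, none of the others had AngII apart from both other groups, and the difference was not tested. Slc25a42 and Slc25a16, which serve coenzyme A transport, were the pair whose order differed between libraries (ratio 0.635 to 1.87).

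Summed over the family, FPKM was 1157 to 1446 in AngII, 882 to 1314 in CDH16KO-AngII and 974 to 1227 in GRPR-AngII, and the ranges overlapped. With groups in the order AngII, CDH16KO-AngII, GRPR-AngII, nucleotide and cofactor carriers took 51.6% ± 2.90, 49.3% ± 2.76 and 48.0% ± 2.53 of the family sum (SD, n = 3). Amino acid carriers took 17.5% ± 0.774, 17.9% ± 0.777 and 20.2% ± 0.603. Their share in the GRPR-AngII libraries (19.6% to 20.8%) lay above every library of the other groups (16.8% to 18.7%). The amino acid sum itself was 221 ± 19.5, 188 ± 32.4 and 221 ± 19.0 FPKM and overlapped between groups, while the nucleotide and cofactor sum was 654 ± 111, 525 ± 143 and 530 ± 88.1 FPKM. In the same order, Slc25a39, the glutathione carrier, alone accounted for 169, 139 and 170 FPKM, most of the amino acid sum. Dicarboxylate and tricarboxylate carriers took 17.7%, 18.4% and 17.7%, proton and uncoupling carriers 9.47%, 10.5% and 10.2%, and iron and other carriers 3.76%, 3.90% and 3.94%. The ranges of these shares overlapped. The iron and other sum was 45.98 to 47.97 FPKM in AngII, above CDH16KO-AngII (38.44 to 42.51) and GRPR-AngII (38.65 to 45.75). In CPM it was 204.8 to 212.3, 174.8 to 192.4 and 202.3 to 209.5, so only CDH16KO-AngII lay apart. In each group the library with the highest sum was library 2, which also had the lowest share of mitochondria-coded counts of its group (17.2%, 16.1% and 19.1%). That share was nearly the same in AngII library 3 (17.4%), which had the lowest sum of its group (1157 FPKM). It was also close in GRPR-AngII library 1 (19.2%, sum 1099 FPKM). The part of that share in the sums was not tested.

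**Figure D2:**
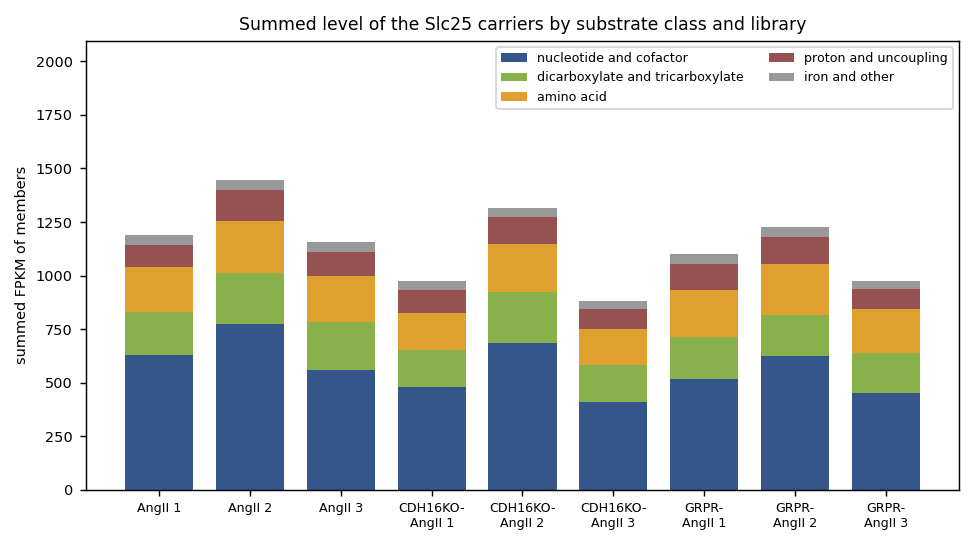
Summed FPKM of the members in each library, stacked by substrate class. Library 2 of each group has the highest sum (1446, 1314 and 1227 FPKM in AngII, CDH16KO-AngII and GRPR-AngII), and nucleotide and cofactor carriers are the largest class in all 9 libraries.

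CDH16KO-AngII against AngII asks what the tubule Cre with the floxed Tmem allele goes with under AngII. No member passed the test (edgeR quasi-likelihood, Benjamini-Hochberg adjusted p under 0.05 over all genes tested), beside 0.168% of all genes (0.104% higher and 0.064% lower). At an unadjusted p under 0.05 there were 6 members, 16.7% of those tested, beside 8.45% of all genes (4.69% higher and 3.76% lower). Among them, Slc25a22, Slc25a23, Slc25a34, Slc25a42 and Slc25a48 were lower. The 3 libraries of each group did not overlap for 7 members (these 6 and Slc25a12), 19.4% beside 12.2% of all genes (6.65% higher and 5.5% lower). DESeq2 called 3 members (Slc25a34 and Slc25a48 among them), but it called 1.68% of all genes, and limma on log2(FPKM + 1) called 0. The log2 fold change was below 0 for 26 of the 36 members (72.2%, beside 48.1% of all genes), and the median was −0.13, beside 0.01 over all genes.

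GRPR-AngII against AngII had no member past the test, beside 0% of all genes. At an unadjusted p under 0.05 there were 2 members, Slc25a16 and Slc25a45, both lower (5.56%, beside 6.74% of all genes, 3.5% higher and 3.24% lower). DESeq2 and limma called 0 members, with 2 and 3 at an unadjusted p under 0.05 (5.56% and 8.33%, beside 7.74% and 6.54% of all genes in those fits). The ranges did not overlap for 6 members (16.7%, beside 14% of all genes, 6.85% higher and 7.2% lower): among them, Slc25a27 and Slc25a28 were higher and Slc25a16, Slc25a23 and Slc25a45 lower. The log2 fold change was below 0 for 20 of 36 members (55.6%, beside 51% of all genes), with a median of −0.05 beside −0.01. With column totals in place of TMM, 25 members were below 0 and the median over all genes moved to −0.08.

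GRPR-AngII against CDH16KO-AngII sets the Cre-positive groups side by side. No member passed the test, beside 0.144% of all genes (0.056% higher and 0.088% lower), while DESeq2 called 2 members (Slc25a34 and Slc25a48) and 1.4% of all genes, and limma called 0. At an unadjusted p under 0.05 there were 3 members, Slc25a22, Slc25a34 and Slc25a48, all higher in GRPR-AngII (8.33%, beside 6.24% of all genes, 3.03% higher and 3.21% lower). The ranges did not overlap for 6 members (16.7%, beside 9.96% of all genes, 4.66% higher and 5.3% lower), with Slc25a22, Slc25a34, Slc25a36, Slc25a39 and Slc25a48 higher among them. The log2 fold change was below 0 for 12 of 36 members (33.3%, beside 52.6% of all genes), with a median of 0.08 beside −0.01 over all genes. The 3 comparisons share groups, so they are not independent of each other.

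**Figure D3:**
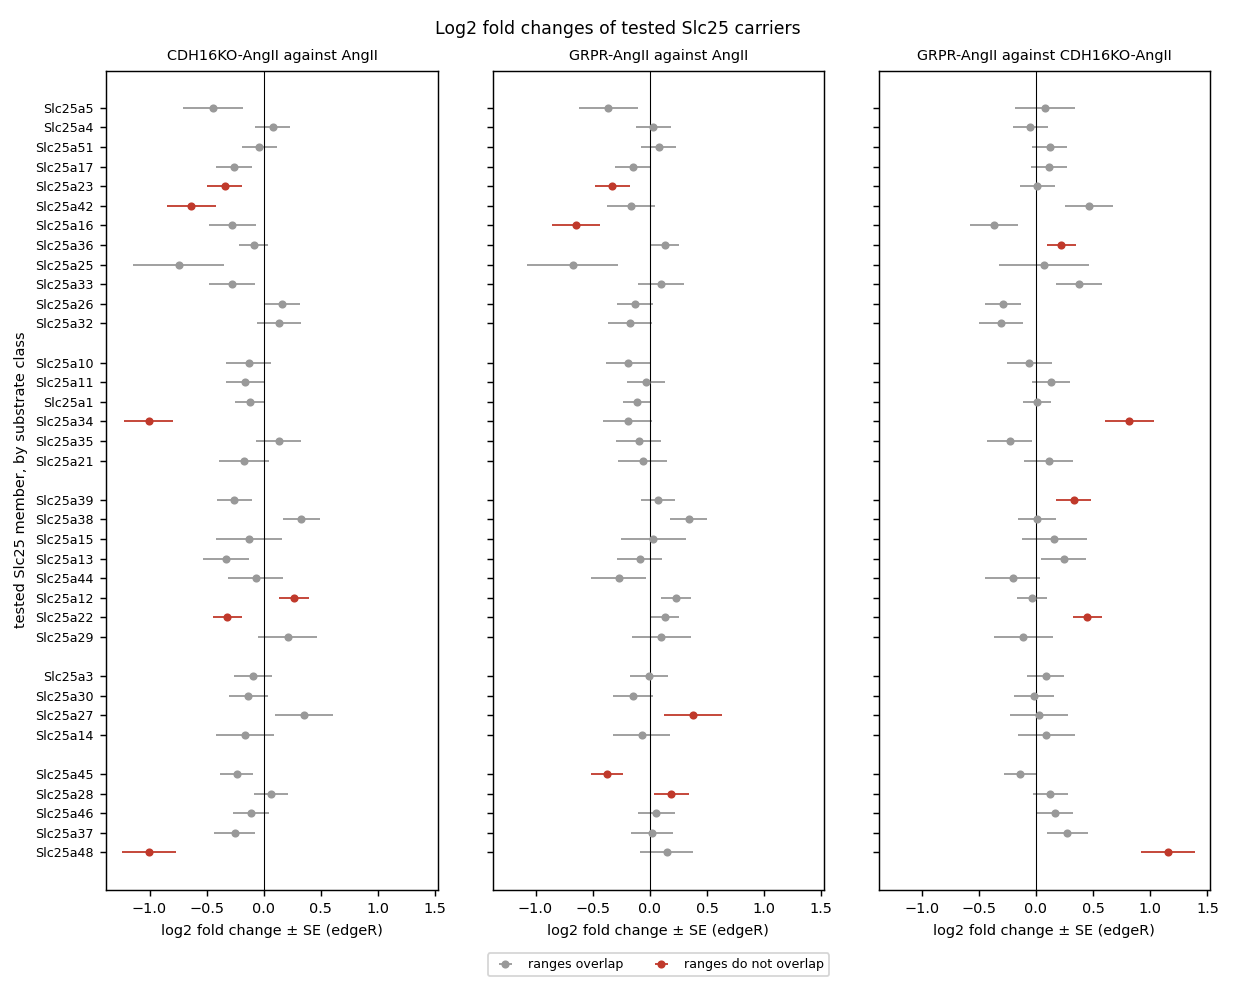
Log2 fold change with its standard error (edgeR) of the tested members reported here in the 3 comparisons, ordered by substrate class; red marks members whose 3 libraries of each group do not overlap. Slc25a34 and Slc25a48 lie farthest from 0 in CDH16KO-AngII against AngII (−1.01 each), and no member passed the adjusted threshold.

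Among the dicarboxylate and tricarboxylate carriers, Slc25a34 stood apart. This orphan carrier (ENSMUSG00000040740, chromosome 4, 141618824 to 141623821) stood at 38.2, 29.9 and 34.5 CPM in AngII. CDH16KO-AngII had 23.8, 14.3 and 12.8 CPM, and GRPR-AngII had 28.8, 29.7 and 31.2 CPM. All 3 CDH16KO-AngII libraries were below all 6 others, and GRPR-AngII overlapped AngII. The mean of 17.0 ± 5.95 CPM in CDH16KO-AngII against 34.2 ± 4.16 CPM in AngII (SD, n = 3 per group) gave a log2 fold change of −1.01 (SE 0.22, edgeR adjusted p = 0.146). Over CDH16KO-AngII, GRPR-AngII stood higher by 0.82 (SE 0.22, adjusted p = 0.282). Without CDH16KO-AngII library 1, the highest of its group, edgeR called Slc25a34 in both comparisons (−1.33, adjusted p = 0.00927, and 1.14, adjusted p = 0.0178), while over all fits without 1 library the adjusted p reached 0.531 and 0.709.

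The other carriers of di- and tricarboxylates overlapped between all groups. Slc25a10, the most abundant of them and a carrier of malate and succinate against phosphate, stood at 373.9 to 465.6 CPM in AngII, 321.1 to 493.6 in CDH16KO-AngII and 306.9 to 426.7 in GRPR-AngII. Slc25a11, of the malate-aspartate shuttle, was at 131 ± 15.5, 117 ± 24.9 and 128 ± 5.93 CPM in the order AngII, CDH16KO-AngII and GRPR-AngII (SD, n = 3). Slc25a1, which exports citrate, was at 108 ± 9.43, 99.3 ± 7.16 and 100.2 ± 5.24 CPM in the same order. Slc25a35 had 28.7 ± 7.22 CPM in CDH16KO-AngII against 26.2 ± 3.29 CPM in AngII, and Slc25a21, the oxodicarboxylate carrier, 16.4 ± 3.55 against 18.5 ± 2.02 CPM.

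Among the carriers without a settled substrate class, Slc25a48, which has been linked to mitochondrial choline uptake, was also lowest in CDH16KO-AngII. It lies on chromosome 13 (ENSMUSG00000021509, 56438355 to 56474239) and stood at 21.3, 21.0 and 18.3 CPM in AngII. CDH16KO-AngII had 13.2, 10.1 and 6.85 CPM, and GRPR-AngII had 24.98, 17.4 and 24.9 CPM. Again all 3 CDH16KO-AngII libraries were below all 6 others. In that order of groups the means were 20.2 ± 1.65, 10.05 ± 3.18 and 22.4 ± 4.37 CPM (SD, n = 3). Against AngII the log2 fold change in CDH16KO-AngII was −1.01 (SE 0.24, adjusted p = 0.187), and GRPR-AngII stood above CDH16KO-AngII by 1.16 (SE 0.24, adjusted p = 0.137). Leaving out CDH16KO-AngII library 1 brought the latter to 1.41 (adjusted p = 0.0461), and the former to −1.25 (adjusted p = 0.0807), over a range of 0.0461 to 0.37 and 0.0807 to 0.573 for fits without 1 library. Of the 5 tested genes within 500 kb of Slc25a48, 2 had CDH16KO-AngII ranges below those of AngII without overlap, beside 5.5% of all genes. They were Cxcl14, which encodes a chemokine, at −1.48 on the log2 scale (adjusted p = 0.274), and Macroh2a1, at −0.19 (adjusted p = 0.683). These neighbours were picked out after their values were seen.

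Levels of proximal tubule markers were read beside these carriers. Their summed level was 10795 to 12222 CPM in AngII, 8488 to 11051 in CDH16KO-AngII and 10698 to 12678 in GRPR-AngII. Of the 10 markers, 8 had a negative log2 fold change in that comparison with AngII (median −0.15) and none passed the test. Slc34a1, the phosphate transporter of the brush border, lies on chromosome 13 (55398187 to 55415592), as Slc25a48 does. It was at 6366, 5347 and 5387 CPM in AngII, 3706, 4551 and 3596 in CDH16KO-AngII, and 5350, 5039 and 6333 in GRPR-AngII. All 3 CDH16KO-AngII libraries were below all 6 others for this marker, as for Slc25a34 and Slc25a48. Its log2 fold changes were −0.53 against AngII (SE 0.20, adjusted p = 0.506) and 0.50 for GRPR-AngII over CDH16KO-AngII (SE 0.20, adjusted p = 0.675). In CDH16KO-AngII against AngII, 1 of the 10 markers had a lower range without overlap (Slc34a1) and 2 a higher one. The shares over all genes were 5.5% lower and 6.65% higher. The 2 higher markers were Slc5a2, by 0.38 (SE 0.16, adjusted p = 0.588), and Slc22a8, by 0.37 (SE 0.17, adjusted p = 0.59). Over all 10 markers, the mean log2 CPM was 8.95 to 9.28 in AngII, 8.86 to 9.33 in CDH16KO-AngII and 9.07 to 9.25 in GRPR-AngII, which overlapped. The part of these markers in the values of both carriers was not tested. Nor was the part of position on chromosome 13 in the values of Slc25a48 and Slc34a1. Hepatocyte markers had sums of 99.6 to 131 CPM in AngII, 201 to 301 in CDH16KO-AngII and 99.5 to 303 in GRPR-AngII; Ttr, which encodes transthyretin, was the largest of them by mean, and Alb was at 4.83 ± 0.32 CPM in CDH16KO-AngII (SD, n = 3). The part of the hepatocyte markers was likewise not tested.

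Among the nucleotide and cofactor carriers, Slc25a42, which brings coenzyme A into the matrix, was lower in CDH16KO-AngII by its range. It stood at 95.04, 86.0 and 83.7 CPM in AngII, 52.2, 58.6 and 59.8 in CDH16KO-AngII, and 51.2, 101.4 and 83.1 in GRPR-AngII. The difference from AngII was −0.63 on the log2 scale (SE 0.21, adjusted p = 0.427). GRPR-AngII spanned both other groups, and its library 1 was the lowest of all 9, so the difference of 0.47 from CDH16KO-AngII (SE 0.21, adjusted p = 0.806) went to 0.24 without GRPR-AngII library 2 and 0.70 without GRPR-AngII library 1. Slc25a16, also tied to coenzyme A, had 72.7, 81.2 and 54.9 CPM in AngII, 56.7, 73.8 and 42.0 in CDH16KO-AngII, and 48.3, 43.4 and 42.0 in GRPR-AngII. All GRPR-AngII libraries were below AngII, with a log2 fold change of −0.64 (SE 0.21, adjusted p = 0.685).

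The ATP-Mg/phosphate carriers, which set the adenine nucleotide pool of the matrix, had lower means in both Cre-positive groups and did not pass the test. Slc25a23 had 123, 93.6 and 90.2 CPM in AngII, 84.5, 74.6 and 82.9 in CDH16KO-AngII, and 71.1, 90.0 and 83.2 in GRPR-AngII. The log2 fold changes were −0.34 (SE 0.15, adjusted p = 0.59) and −0.33 (SE 0.15, adjusted p = 0.732), and without AngII library 1 they were −0.19 and −0.17. The closest values, 90.2 and 90.0 CPM, were nearly equal. Slc25a23 overlaps Crb3 on the other strand, which had a mean of 1953 counts beside 4581 for Slc25a23, so reads of the pair may be mixed. Slc25a25 had 45.1, 144 and 78.6 CPM in AngII, 35.1, 68.8 and 55.9 in CDH16KO-AngII, and 69.6, 36.8 and 61.3 in GRPR-AngII. AngII library 2 was the highest of all 9, and the GRPR-AngII difference of −0.68 (SE 0.40, adjusted p = 0.747) became −0.15 without that library.

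The ADP/ATP exchangers overlapped between all groups. Slc25a5 had 834, 982 and 592 CPM in AngII, 499, 823 and 447 in CDH16KO-AngII, and 572, 737 and 565 in GRPR-AngII. Library 2 was the highest in each group, and the log2 fold changes were −0.44 (SE 0.26, adjusted p = 0.653) for CDH16KO-AngII and −0.36 (SE 0.26, adjusted p = 0.778) for GRPR-AngII against AngII. The former ranged from −0.76 without CDH16KO-AngII library 2 to −0.27 without AngII library 2. Slc25a4 was at 292 ± 38.6, 308 ± 37.7 and 297 ± 21.5 CPM across AngII, CDH16KO-AngII and GRPR-AngII (SD, n = 3), with log2 fold changes of 0.08 and 0.03 against AngII. Slc25a5 shares at least 50% of its transcript at 95% identity with 2 other genes, which had means of 107.1 and 47.8 counts beside 35350 for Slc25a5.

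None of the other nucleotide and cofactor carriers passed the test either. Slc25a36, a pyrimidine nucleotide carrier, had 116, 97.4 and 109 CPM in AngII, 107, 92.8 and 103 in CDH16KO-AngII and 110, 123 and 121 in GRPR-AngII, where all 3 were above CDH16KO-AngII (log2 fold change 0.22, SE 0.13, adjusted p = 0.901). Slc25a51, which carries NAD, was at 154 ± 10.5, 150 ± 21.7 and 163 ± 20.7 CPM in AngII, CDH16KO-AngII and GRPR-AngII (SD, n = 3), and Slc25a17, a peroxisomal cofactor carrier, at 87.6 ± 8.23, 73.0 ± 13.8 and 79.0 ± 6.50 CPM. Slc25a33, Slc25a26 (S-adenosylmethionine) and Slc25a32 (folate and FAD) had log2 fold changes between −0.28 and 0.16 in the comparisons with AngII. In GRPR-AngII against CDH16KO-AngII these were 0.38, −0.29 and −0.31 (adjusted p = 0.89, 0.891 and 0.926), and the ranges overlapped. Slc25a26 overlaps Lrig1 on the other strand, which had a mean of 634 counts beside 742 for Slc25a26. Reads of the pair may be mixed.

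**Figure D4:**
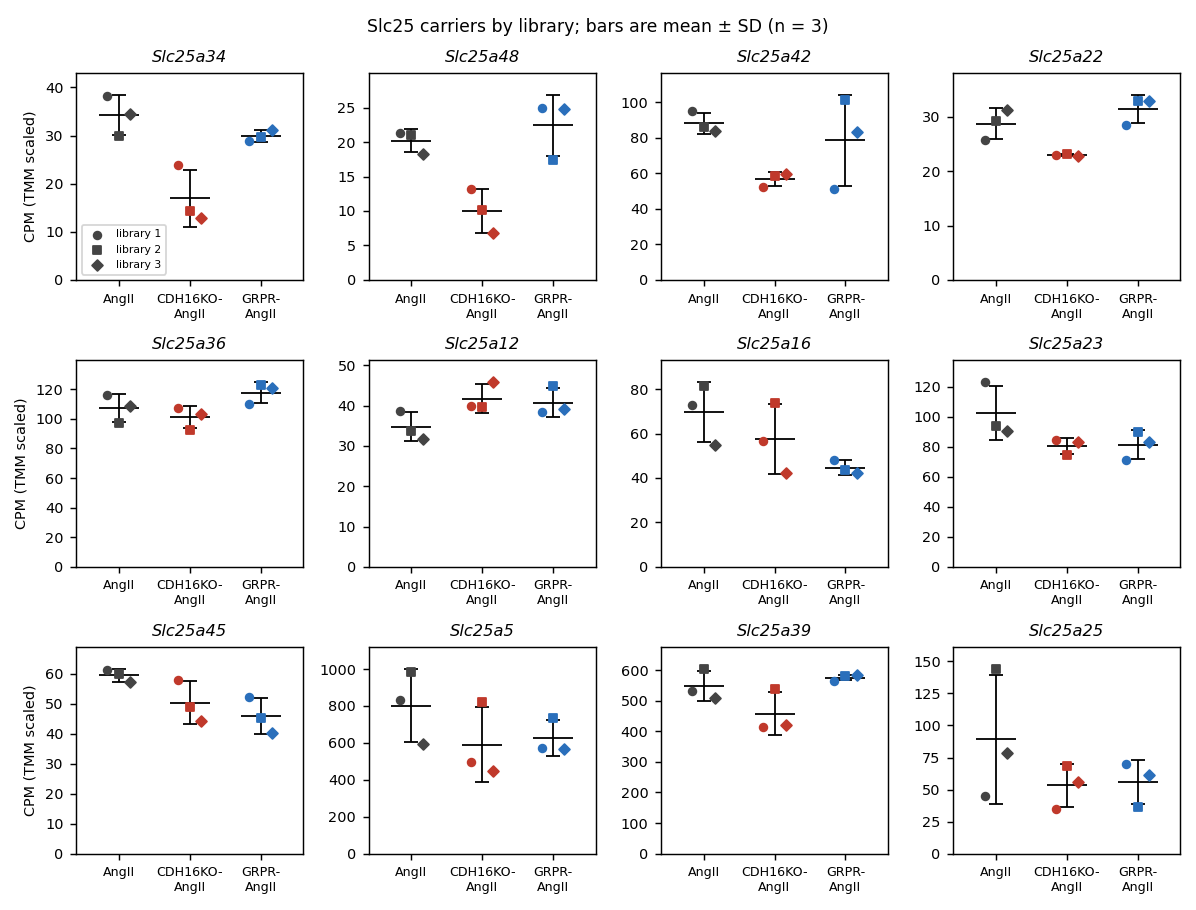
TMM-scaled CPM of 12 members in each library, with the mean and SD (n = 3) as bars; marker shapes show the library number and the vertical axes start at 0. The 3 CDH16KO-AngII libraries of Slc25a34 (12.8 to 23.8 CPM) and Slc25a48 (6.85 to 13.2 CPM) lie below all 6 others, while Slc25a5 and Slc25a25 overlap between all groups.

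Among the amino acid carriers, Slc25a22, a glutamate carrier, did not overlap between CDH16KO-AngII and the other groups. It stood at 25.6, 29.2 and 31.2 CPM in AngII, 23.0, 23.2 and 22.9 in CDH16KO-AngII, and 28.5, 32.8 and 32.9 in GRPR-AngII. CDH16KO-AngII was the lowest group. The log2 fold change was −0.32 against AngII (SE 0.13, adjusted p = 0.551) and 0.45 for GRPR-AngII over CDH16KO-AngII (SE 0.13, adjusted p = 0.328). Slc25a12, an aspartate/glutamate carrier, was at 38.8, 33.8 and 31.7 CPM in AngII and 39.8, 39.6 and 45.8 in CDH16KO-AngII, which did not overlap, and at 38.4, 44.8 and 39.1 in GRPR-AngII. Its differences from AngII were 0.26 (SE 0.13, adjusted p = 0.613) and 0.23 (SE 0.13, adjusted p = 0.74). Its relative Slc25a13 had the opposite sign, at 50.4 ± 6.59, 40.05 ± 9.85 and 47.35 ± 8.37 CPM for AngII, CDH16KO-AngII and GRPR-AngII (SD, n = 3), with log2 fold changes of −0.33 (adjusted p = 0.658) and −0.09 (adjusted p = 0.927).

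Slc25a39, which supplies the matrix with glutathione, had 532, 603 and 508 CPM in AngII, 415, 539 and 420 in CDH16KO-AngII, and 565, 580 and 582 in GRPR-AngII. Every GRPR-AngII library was above every CDH16KO-AngII library, with a log2 fold change of 0.33 (SE 0.15, adjusted p = 0.818). CDH16KO-AngII against AngII gave −0.26 (SE 0.15, adjusted p = 0.653), with ranges that overlapped. Slc25a38, which brings glycine into the matrix for heme synthesis, had 31.0, 35.7 and 37.4 CPM in AngII, 45.7, 35.6 and 49.5 in CDH16KO-AngII, and 47.0, 36.4 and 48.4 in GRPR-AngII. Library 2 of each Cre-positive group was within the AngII range, and the differences were 0.33 and 0.34 (SE 0.16 each, adjusted p = 0.615 and 0.732). The ornithine carrier Slc25a15 was at 83.3 ± 14.9, 76.1 ± 33.5 and 85.1 ± 14.4 CPM (SD, n = 3), Slc25a44, a carrier of branched-chain amino acids, at 24.1 ± 6.23, 23.0 ± 3.40 and 20.0 ± 5.80 CPM, and Slc25a29, of basic amino acids, at 4.97 ± 1.25, 5.76 ± 1.34 and 5.33 ± 0.553 CPM, in the order AngII, CDH16KO-AngII and GRPR-AngII.

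The proton and uncoupling carriers overlapped in nearly all comparisons. Slc25a3, which moves phosphate into the matrix with a proton for ATP synthesis, had 616, 778 and 582 CPM in AngII, 612, 686 and 557 in CDH16KO-AngII, and 676, 702 and 588 in GRPR-AngII. Its log2 fold changes were −0.09 and −0.01 against AngII (SE 0.17 each), both above 0 without AngII library 2, and the latter also without GRPR-AngII library 3. Slc25a30, named for kidney mitochondria, was at 89.4 ± 13.2, 81.5 ± 12.2 and 80.6 ± 13.8 CPM in AngII, CDH16KO-AngII and GRPR-AngII (SD, n = 3). Slc25a27, an uncoupling protein relative known from brain, was low, at 4.92, 4.16 and 5.76 CPM in AngII and 6.05, 5.90 and 7.31 CPM in GRPR-AngII, which did not overlap (log2 fold change 0.38, SE 0.25, adjusted p = 0.761). CDH16KO-AngII had 5.87, 4.66 and 8.36 CPM of it. Slc25a14 was at 2.32 to 3.43 CPM over all libraries. Of the uncoupling proteins named Ucp, which belong to the same family of carriers, Ucp2 was tested, at 119 ± 28.1, 109.5 ± 42.6 and 113 ± 36.01 CPM, and Ucp1 and Ucp3 did not exceed 0.194 CPM in any library.

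Of the iron carriers, Slc25a28 had 50.8, 54.1 and 52.7 CPM in AngII, 51.4, 46.0 and 67.1 in CDH16KO-AngII and 64.2, 54.7 and 60.5 in GRPR-AngII. GRPR-AngII lay above AngII, by 0.19 on the log2 scale (SE 0.15, adjusted p = 0.798). Slc25a37, the mitoferrin of red cell precursors, was at 38.4 ± 4.04, 32.2 ± 2.68 and 38.9 ± 10.2 CPM in AngII, CDH16KO-AngII and GRPR-AngII (SD, n = 3). Erythroid markers, led by globin genes, summed to between 80.4 and 1851 CPM per library, and their part in the level of Slc25a37 was not tested. Slc25a45, the most abundant of the carriers of unsettled substrate, had 61.2, 59.9 and 57.1 CPM in AngII, 58.0, 48.9 and 44.0 in CDH16KO-AngII and 52.1, 45.2 and 40.1 in GRPR-AngII. Its GRPR-AngII libraries lay below all AngII libraries (log2 fold change −0.37, SE 0.14, adjusted p = 0.732). Slc25a46, an outer membrane protein of mitochondrial dynamics, was at 34.2 ± 4.42, 31.6 ± 5.67 and 35.5 ± 2.85 CPM.

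Of the 9 members below the filter, compared singly by exact two-sided permutation tests whose smallest p is 0.1 with 3 against 3 libraries, 2 had ranges that did not overlap in GRPR-AngII against AngII (22.2%, beside 5.94% of the 20086 genes below the filter with a count), and 0 in the other comparisons (beside 6.82% and 6.83%). Slc25a40 was at 8.11, 8.41 and 8.20 CPM in AngII and 9.27, 11.2 and 8.43 in GRPR-AngII (exact p = 0.1), with the closest libraries at 8.41 and 8.43. The ornithine carrier Slc25a2 was at 0.107, 0.301 and 0.0911 CPM in AngII and 0.402, 0.450 and 0.360 in GRPR-AngII (exact p = 0.1). Any 3 against 3 libraries without overlap give this p, so it adds nothing to the ranges. Below the filter, a gene at 0 in libraries of both groups counts as overlapping, which lowers the share over those genes. Over the tested genes the share in GRPR-AngII against AngII was 14%. In a fit of all genes without a filter, 0 of the 45 members were called in any comparison, with 6, 2 and 5 at an unadjusted p under 0.05 (13.3%, 4.44% and 11.1%, beside 5.7%, 4.47% and 4.63% of all genes in that fit). Those shares of all genes include many genes with few counts, unlike most members. Over the 12507 genes of the main fit they were 8.45%, 6.74% and 6.24%.

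Genes around the carriers were read from lists of other parts of the mitochondrion, and none of their tested members passed the test in any comparison. Of all genes tested, 48.1% were below 0 in CDH16KO-AngII against AngII and 51% in GRPR-AngII against AngII. The share was 52.6% in GRPR-AngII against CDH16KO-AngII. Of the 17 other inner membrane carriers tested, 10 were below 0 on the log2 scale for CDH16KO-AngII over AngII (median −0.02). Among them Abcb6, a porphyrin transporter, stood at 31.2 ± 4.90, 27.1 ± 3.33 and 34.9 ± 2.71 CPM, and Smdt1, a subunit of the calcium uniporter, at 123 ± 27.2, 141 ± 13.35 and 164.5 ± 12.5 CPM, for AngII, CDH16KO-AngII and GRPR-AngII (SD, n = 3), picked as examples after their values were seen. Of 16 nuclear ATP synthase genes, 10 were below 0 in CDH16KO-AngII against AngII (median −0.05), and 16 of 16 were above 0 in GRPR-AngII against CDH16KO-AngII (median 0.14). In the latter comparison 13 of the 17 other inner membrane carriers and 10 of 12 carrier import genes were also above 0. So were 3 of 12 biogenesis regulators. Of the 6 enzymes of the malate-aspartate and glycerol phosphate shuttles, 5 were below 0 in each comparison with AngII (medians −0.23 and −0.18), with Mdh1, the cytosolic malate dehydrogenase, at 836 ± 204, 619 ± 171 and 622 ± 89 CPM.

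The machinery that imports carriers into the inner membrane had 12 tested members, of which 7 and 8 were above 0 against AngII (medians 0.03 and 0.15). Timm9, a small chaperone of the intermembrane space, was at 43.0 ± 7.23, 54.5 ± 6.05 and 61.6 ± 4.30 CPM in AngII, CDH16KO-AngII and GRPR-AngII (SD, n = 3). Its log2 fold changes against AngII were 0.34 (SE 0.15, adjusted p = 0.588) and 0.52 (SE 0.15, adjusted p = 0.66). Among 6 outer membrane channels and related genes, Vdac1, the main pore for metabolites, was at 498 ± 73.4, 382 ± 104 and 377 ± 33.0 CPM, with log2 fold changes of −0.38 and −0.40 (adjusted p = 0.626 and 0.736). Of 12 regulators of mitochondrial biogenesis, 7 were above 0 for CDH16KO-AngII and 5 for GRPR-AngII over AngII (medians 0.06 and −0.18). Among them Esrra, a nuclear receptor that drives genes of oxidative metabolism, was at 138 ± 15.8, 178 ± 16.8 and 188 ± 9.08 CPM. Its log2 fold changes against AngII were 0.36 (SE 0.14, adjusted p = 0.526) and 0.44 (SE 0.14, adjusted p = 0.685). Timm9, Vdac1, Mdh1 and Esrra were picked as examples after their values were seen. Ppargc1a, a coactivator of Esrra, was at 46.2 ± 11.7, 50.02 ± 8.19 and 40.3 ± 6.83 CPM.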

How the data were processed

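Kidney RNA of 9 libraries was analysed, 3 per group, with groups taken from the sample labels. Per the labels' protocols, a SMARTER mRNA-Seq kit turned total RNA into libraries. GRCm38 and mm10 stand in the submitters' processing notes. The aligner, counter and strand setting: not given in the sources used here. Per the file headers, the authors deposited a count and an FPKM value per gene and library. The counts are whole numbers and may be rounded estimates. The FPKM values are scaled by the authors to transcript length and library.

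The main test was the quasi-likelihood test of edgeR 4.0.16 (R 4.3.3) on the deposited counts, with TMM scaling, group as the only term and all 9 libraries in 1 fit. Genes entered the fit if 3 or more libraries reached FPKM 1 (12507), with Benjamini-Hochberg adjusted p under 0.05 as the threshold. Alternatives were DESeq2 1.42.0, limma 3.58.1 on log2(FPKM + 1) and log2(FPKM + 0.1), other filters and scalings, fits without mitochondria-coded genes, fits of 2 groups only, a replicate block and leaving out each library. The fit was tested on simulated data. Sequence sharing was searched with BLAST+ 2.17.0, taking 95% identity over 50% of a transcript as shared.

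Results of 1 member are not reported here, though counts over the family include it. Named members were those highest in FPKM in each class, the 6 of smallest p per comparison and those with ranges that did not overlap; other members and lists follow as counts and examples. The members, classes and lists were chosen with earlier results of these data known. Libraries of 1 group differed by a chi-square per gene of 74.2 to 366, so none was counted as a copy. The labels do not say that libraries are separate animals, so p-values reflect only how these libraries vary, which may be technical.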

Additional observations from a re-analysis of the deposited data

How the results depend on the processing

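Members called stayed at 0 in all 3 comparisons under other filters, scalings, limma, fits of 2 groups and the fit without mitochondria-coded genes. DESeq2 called 3 members in CDH16KO-AngII against AngII, 0 in GRPR-AngII against AngII and 2 in GRPR-AngII against CDH16KO-AngII. Leaving out 1 library gave 0 to 1, 0 to 0 and 0 to 2 called members, those above 0 without CDH16KO-AngII library 1. Over all genes, 21, 0 and 18 were called. DESeq2 called 210, 54 and 175, and leaving out 1 library gave 0 to 42, 0 to 2 and 0 to 50. In GRPR-AngII against CDH16KO-AngII, 41 genes were called with no filter and 9 with only those 2 groups.

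Signs were followed only for the members named in a given comparison, and log2 fold changes near 0 changed sign for 4 of these members. With column totals only, 25 of the 36 tested members were below 0 in GRPR-AngII against AngII, beside 20 in the main fit. Slc25a39 in GRPR-AngII against AngII went from 0.07 to −0.0063 with column totals only. Without 1 library, Slc25a3 ranged from −0.17 to 0.0452 in CDH16KO-AngII against AngII and from −0.0895 to 0.13 in GRPR-AngII against AngII. In GRPR-AngII against CDH16KO-AngII, Slc25a5 ranged from −0.0821 to 0.40 and Slc25a10 from −0.18 to 0.14. The cause was not tested.

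Titles number the libraries 1 to 3 in each group. Deviations of libraries with the same number correlated between −0.10 and 0.24, and those with different numbers between −0.30 and 0.23. Same-number values were 0.11 to 0.22 for number 2 and 0.19 to 0.24 for number 3. Not every library correlated best with its own number. The main fit did not take the numbers as pairs, and these values do not settle whether they are. With the number as a replicate block, 0 members were called in each comparison and 26, 0 and 13 genes overall. At an unadjusted p under 0.05 that fit had 10, 3 and 5 members (27.8%, 8.33% and 13.9%). The shares over all genes in it were 13.1%, 10.2% and 8.4%. Depth limits the least abundant members: Slc25a2 rests on 4 to 28 counts per library and Slc25a18 on 0 to 19.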

Other observations

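Genes near Slc25a34 and Slc25a48 were looked at after the values of both carriers were known. Of 22 tested genes within 500 kb of Slc25a34, 11 were above and 11 below 0 on the log2 scale for CDH16KO-AngII over AngII (median −0.01), and none of this was tested as a group. Near Slc25a48, Cxcl14 also stood higher in GRPR-AngII than in CDH16KO-AngII, by 1.64 (adjusted p = 0.229). So did Tgfbi, which encodes a matrix protein, by 0.72 (adjusted p = 0.448). These 2 of the 5 neighbours tested had higher ranges that did not overlap, beside 4.66% of all genes. Markers of the loop of Henle and distal convoluted tubule were above 0 for 6 of 7 genes in CDH16KO-AngII over AngII (median 0.21), and none passed the test.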
